A study of Drosophila melanogaster with 2 samples.

Results

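The nuclear tRNA genes of Drosophila melanogaster were examined as a class in a chromatin immunoprecipitation (ChIP-seq) study of the transcription factor Bicoid. All 295 genes of the chromosome arms whose symbol starts with tRNA: in the Release 6 annotation were taken, of 18277 genes in all, and the mitochondrial genome was left out. Of them, 290 carry the biotype tRNA and 5 have symbols ending in Psi, the mark of pseudogenes. Because tRNA genes lie in groups, genes separated by gaps of at most 1000 bp were joined into 1 locus, which gave 105 isolated genes and 71 clusters with 190 genes, 176 loci in all. A locus was counted as having a summit when the summit of a peak lay within 500 bp of the body of any of its genes.

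Chromatin came from whole embryos, 0 to 24 hours old and of both sexes pooled, of a transgenic line labelled 1T-GFP that stably expresses bcd with enhanced green fluorescent protein at its C terminus, and was sonicated to fragments of 200 to 800 bp. Bound DNA was recovered through the tag, with anti-GFP antibody. The 2 libraries, biological replicates 1 and 3, form a single group with the same genotype and age, so the comparisons are between loci, between kinds of gene and between the replicates. A whole embryo mixes many cell types and stages, so weak binding in all cells and strong binding in a few cannot be told apart, and a control library was not analysed here. The authors' lists on the dm6 build were used, namely 30000 relaxed entries for each replicate and for both pooled, and 6054 entries that passed the irreproducible discovery rate (IDR) threshold. Relaxed lists hold peaks and background together, and no list gives read counts, so the depth is unknown.

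Bicoid, the product of bcd, is a maternal homeodomain protein that patterns the anterior of the embryo and regulates genes read by RNA polymerase II. tRNA genes are read by RNA polymerase III instead. Their promoter lies inside the gene, in 2 short elements called box A and box B, which the factor TFIIIC binds before it places TFIIIB upstream of the start. The products carry amino acids to the ribosome, and each isotype is named for its amino acid and each family for its anticodon. Genes of a family are often exact copies, so a sequencing read that lies wholly inside such a gene cannot be assigned to 1 copy.

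The tRNA genes were 71 to 186 bp long with a median of 73 bp, 16 of them contained an intron, and they covered 22 isotypes and 44 anticodons. Sequences of 57 genes were unique, and the other 238 had at least 1 identical copy, so that the 295 genes held 100 distinct sequences and the largest identical group had 13 members. The box B core, searched on both strands as GTTCNANNC, occurred in 274 of the 295 genes (92.9%), against 2.11% of stretches of 73 bp taken from the start of each 1 kb tile of the arms. Box A cores, searched as TGGCNNAG or TAGCNNAG, occurred in 146 genes (49.5%) against 6.02% of the stretches. All 14 genes within 500 bp of an IDR summit held the box B word (exact interval 76.8 to 100%). A box A word was held by 4 of the 14 (28.6%, exact interval 8.39 to 58.1). Of the 88 genes with a pooled summit, 88.6% held the box B word and 51.1% a box A word. The 207 genes with none stood at 94.7% and 48.8%, with overlapping intervals for each word.

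Printed here, 5′ to 3′ on the strand of the gene, are isolated tRNA genes and genes of clusters at which the thresholded list has a summit, followed by the first gene of a large cluster that has none, so that both kinds can be compared with the box B core, and box A core where it was found, in capitals. The first 3 are isolated: Val-CAC-2-5 at chr3R:19672277-19672349 on the minus strand, 1 of 6 identical genes, Leu-TAA-2-1 at chr3R:24112964-24113047 on the plus strand, and Gln-TTG-2-1 at chrX:3427452-3427523 on the minus strand, both of unique sequence. Tyr-GTA-1-8 at chr3R:8669081-8669174 on the minus strand belongs to a cluster of 3 and Asp-GTC-1-5 at chr2L:8541761-8541832 on the plus strand, 1 of 12 identical genes, to a cluster of 2. Arg-TCG-2-1 at chrX:14014814-14014886 on the plus strand, 1 of 4 identical genes, opens a cluster of 7. Sequences are those of the RefSeq copy of Release 6. All 6 hold the box B core, with or without a summit nearby.
tRNA:Val-CAC-2-5: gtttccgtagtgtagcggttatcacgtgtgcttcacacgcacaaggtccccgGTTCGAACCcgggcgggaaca
tRNA:Leu-TAA-2-1: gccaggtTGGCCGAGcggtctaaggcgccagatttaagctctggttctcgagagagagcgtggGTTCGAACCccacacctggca
tRNA:Gln-TTG-2-1: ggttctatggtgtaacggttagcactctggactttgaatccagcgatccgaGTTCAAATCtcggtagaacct
tRNA:Tyr-GTA-1-8: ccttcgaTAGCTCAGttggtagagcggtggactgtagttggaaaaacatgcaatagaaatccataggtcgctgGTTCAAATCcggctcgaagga
tRNA:Asp-GTC-1-5: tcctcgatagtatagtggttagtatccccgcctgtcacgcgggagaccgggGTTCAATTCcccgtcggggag
tRNA:Arg-TCG-2-1: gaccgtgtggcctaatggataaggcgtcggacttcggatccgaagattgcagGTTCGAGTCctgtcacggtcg

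Few tRNA loci had a summit in the thresholded list. An IDR summit lay within 500 bp of 11 of 176 loci, or 6.25% with an exact (Clopper-Pearson) 95% binomial interval of 3.16 to 10.9%. Such intervals cover counting error over loci only. Counted by gene, 14 of 295 tRNA genes had one (4.75%), and 13 (4.41%) when only the 500 bp around the 5′ end were searched. The same 5′-end window held an IDR summit at 17.7% of the 17982 other genes and at 20.7% of protein-coding genes. MicroRNA genes, another class of short noncoding genes, stood at 5.38% (14 of 260) and snoRNA genes, whose products guide RNA modification, at 4.83% (13 of 269), so the interval of the tRNA genes, 2.37 to 7.42%, held both. It also held the 4.16% of all 1 kb tiles with an IDR summit. The 5 Psi genes, few for a share, had no IDR or pooled summit. They were not without a summit in replicate 1, where 106 of all 295 genes had one, and 105 of the 290 without Psi.

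**Figure D1:**
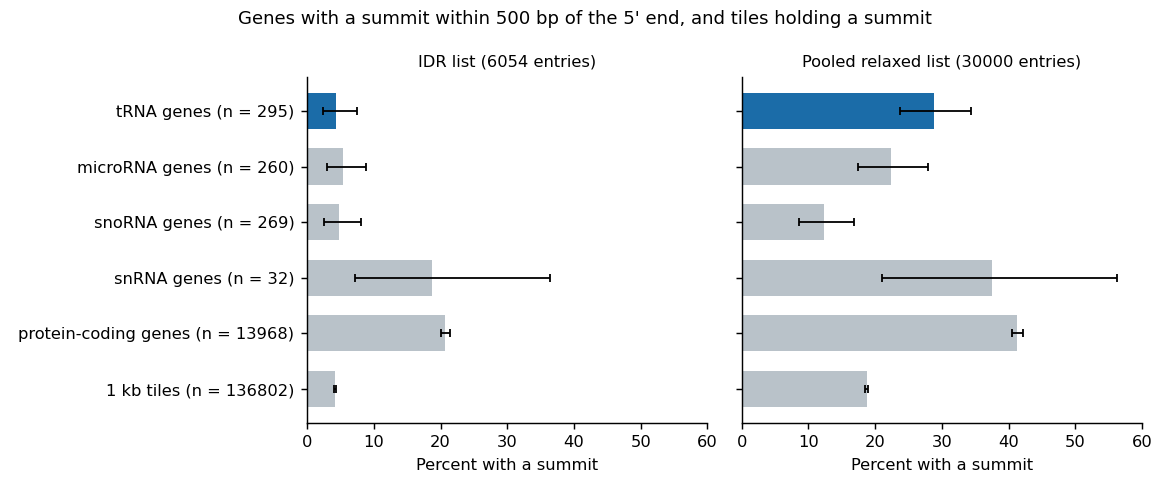
Percent of genes of each class with a summit within 500 bp of the 5′ end, and percent of 1 kb tiles holding a summit, in the IDR list (left) and the pooled relaxed list (right), with exact 95% binomial intervals as error bars. tRNA genes stood at 4.41% and 28.8%, protein-coding genes at 20.7% and 41.3%, and tiles at 4.16% and 18.7%.

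Each of the 11 loci with an IDR summit had 1 such entry, and their strength spanned most of the list. Signal values are the authors' own, on a scale the sources do not name, and rank 1 is the strongest entry of a list. Values of different lists stand side by side without being set to 1 scale, so replicates were compared by rank. Tyr-GTA-1-8, at the end of a cluster of 3 tyrosine genes, had the strongest, with a signal of 1243 and rank 135. In that entry replicate 1 gave 531 and replicate 3 gave 711, at ranks 173 and 124 of their own lists. Phe-GAA-1-2, an isolated phenylalanine gene on X, followed with 712 in the pooled list, 348 in replicate 1 and 367 in replicate 3. These were the only tRNA loci among the 1000 strongest pooled entries, and both lay near the start of a coding gene, 237 bp from that of CG8036 and 85 bp from that of RpL17, which encodes a protein of the large ribosomal subunit.

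The next loci were close to one another in signal. Trp-CCA-2-2, in a cluster with Gly-GCC-1-9, had 372 in the pooled list, 196 in replicate 1 and 180 in replicate 3. Val-CAC-2-5 and Leu-TAA-2-1, both isolated, had pooled signals of 333 and 320. Both ranked higher in replicate 1, at 1197 and 1244, than in replicate 3, at 2698 and 2957. Asp-GTC-1-5 (268), Glu-TTC-1-5 (263) and His-GTG-1-3 (252) belonged to clusters of 2, 5 and 3 genes, and their replicate values lay between 119 and 142. The 8 loci from Tyr-GTA-1-8 to His-GTG-1-3 were also among the 6054 strongest entries of each replicate.

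The 3 weakest loci were not among the 6054 strongest entries of both replicates. The isolated glutamine gene Gln-TTG-2-1 had a pooled signal of 194, with 147 at rank 2461 in replicate 3 and 53.7 at rank 7143 in replicate 1. Arg-CCT-1-2, in a pair of arginine genes, had a pooled signal of 179 and went the other way, with 119 at rank 2598 in replicate 1 and 62.9 at rank 6753 in replicate 3. Thr-AGT-1-4, an isolated threonine gene, had 128 at rank 5914, close to the lowest signal of the IDR list (125). An overlapping entry was present in replicate 3 at 48.1 and absent from the 30000 entries of replicate 1. Whether these differences come from depth was not tested.

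**Figure D2:**
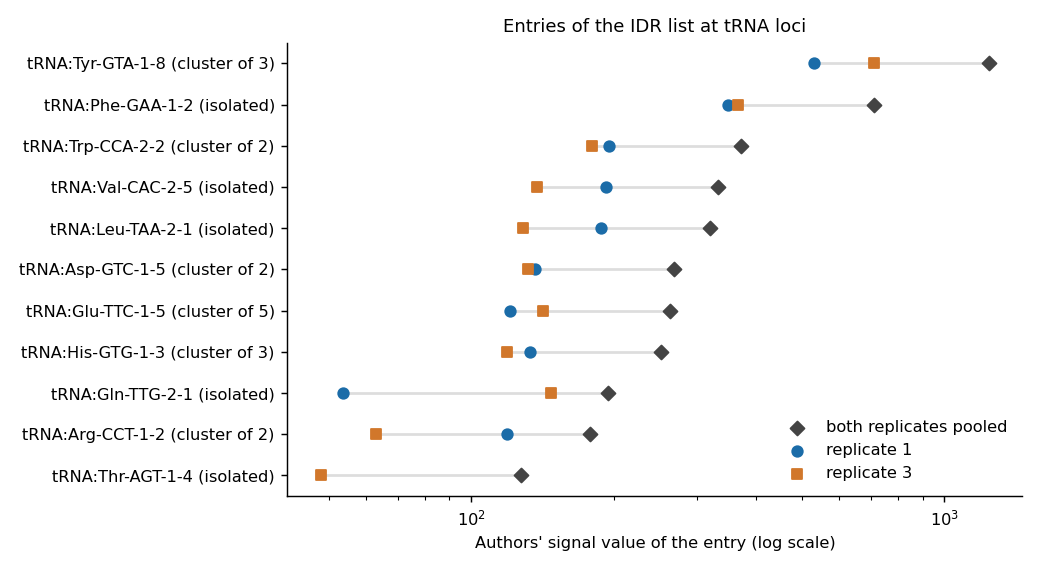
Authors' signal value (log scale) of the 11 IDR entries at tRNA loci, one row per locus, in the pooled list (diamonds), replicate 1 (circles) and replicate 3 (squares). The pooled values run from 128 to 1243, and Thr-AGT-1-4 has no entry in replicate 1. The lists are not set to 1 scale.

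None of the 11 IDR summits lay inside a tRNA gene: 7 were upstream and 4 downstream, with a median offset of -159 bp from the 5′ end of the nearest tRNA gene and quartiles of -204.5 and 263.5 bp. Most of them were near the start of a coding gene. Of the 11 summits, 8 (72.7%) lay within 500 bp of a coding transcription start site (TSS), against 44.3% of all 6054 IDR summits. No interval was computed for this share of 11, and an excess over the list was not tested. Of the 11, 5 were closer to the coding TSS than to the 5′ end of the tRNA gene. The summit at Trp-CCA-2-2 was 5 bp from the TSS of CG30122 and 282 bp from the tRNA gene. At Asp-GTC-1-5 it was 79 bp from the TSS of Sema1a, a gene for an axon guidance protein, and 307 bp from the 5′ end of the tRNA gene. At Val-CAC-2-5 it was 437 bp from the TSS of Naam, which encodes a nicotinamidase, and at His-GTG-1-3 it was 91 bp from that of CG8490.

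Counted by locus, the share with an IDR summit also went with the presence of a coding start. Of the 52 loci with a coding TSS within 1000 bp of a tRNA gene, 8 had an IDR summit (15.4%, interval 6.88 to 28.1), and of the 124 loci with none that near, 3 did (2.42%, interval 0.502 to 6.91), so the intervals met at their ends. Isolated genes, whose windows are about as long as a 1 kb tile, stood at 4 of 26 with a coding TSS (15.4%, interval 4.36 to 34.9) and at 1 of 79 without (1.27%, interval 0.032 to 6.85). The tiles stood at 9.24% with a coding TSS within 1000 bp and at 2.32% without, both inside the intervals of the isolated genes. The 3 loci were Glu-TTC-1-5, Gln-TTG-2-1 and Arg-CCT-1-2, whose summits were 13091, 8121 and 4433 bp from the nearest coding TSS. At Glu-TTC-1-5 the summit was 15 bp from the start of snoRNA:185. Binding at a tRNA gene and binding at a coding promoter next to it cannot be told apart where both lie within a fragment's length.

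The stretches beside a pair of isolated X-linked genes show both settings, each read 5′ to 3′ on the strand of the tRNA gene. The upstream stretch of Gln-TTG-2-1, chrX:3427452-3427706, has its summit at base 21 and the tRNA gene, in capitals, from base 184 to the end, and no coding TSS nearer than 8121 bp. The stretch that follows the 3′ end of Phe-GAA-1-2, chrX:6744303-6744470, has its summit at base 148 and leads towards RpL17. Its capitals, from base 162, mark the only match of the Bicoid word TAATCC, read on the other strand, within 100 bp of an IDR summit at a tRNA locus, and the match begins 14 bp from the summit.
tRNA:Gln-TTG-2-1 upstream: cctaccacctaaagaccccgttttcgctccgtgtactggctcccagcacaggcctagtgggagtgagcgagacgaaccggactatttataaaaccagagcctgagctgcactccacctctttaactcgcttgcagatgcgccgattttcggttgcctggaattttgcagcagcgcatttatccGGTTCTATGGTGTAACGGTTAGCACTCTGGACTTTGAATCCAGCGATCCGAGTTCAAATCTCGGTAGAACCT
tRNA:Phe-GAA-1-2 downstream: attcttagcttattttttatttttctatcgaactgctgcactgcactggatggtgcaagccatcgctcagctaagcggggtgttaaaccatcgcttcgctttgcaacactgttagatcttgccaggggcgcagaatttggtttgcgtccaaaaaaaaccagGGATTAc

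The words of 3 factors were searched on both strands in the 201 bp around each summit. TAATCC, the core word of Bicoid sites, was present at 1 of the 11 IDR entries at tRNA loci (9.09%, interval 0.23 to 41.3) and at 4 of the 76 pooled entries there (5.26%, interval 1.45 to 12.9). All IDR entries stood at 6.74%, all pooled entries at 6.46% and the tiles at 6.91%. TATCGATA, the word of the promoter factor DREF, was present at 1 tRNA entry, that of Trp-CCA-2-2. The word of M1BP, GGTCACAC, was present at 1 of the 76 pooled entries, that of Gly-GCC-1-10, and at none of the 11 IDR entries, which allows a share of up to 28.5% (exact interval). In the whole IDR list these 2 words were present at 3.63% and 2.59% of entries. In the whole pooled list they were present at 1.59% and 1.40%, and in the tiles at 0.555% and 0.429%.

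In the pooled relaxed list, 61 of 176 tRNA loci had a summit (34.7%, interval 27.7 to 42.2). By gene the share was 29.8%, and 28.8% (85 of 295) in the 5′-end window, against 37.6% of the other genes, 41.3% of protein-coding genes, 22.3% of microRNA genes, 12.3% of snoRNA genes and 18.7% of 1 kb tiles. The interval of the tRNA genes in that window, 23.7 to 34.3%, lay below the coding genes and above the tiles. It takes the genes as separate although clustered genes share summits. In the lists of single replicates, the interval lay above the tiles in replicate 1 and held their share in replicate 3. Per Mb, all tRNA windows together held 321 pooled summits (exact Poisson interval 253 to 401), against 218 over the whole arms. With a coding TSS within 1000 bp, 21 of 52 loci had a pooled summit (40.4%, interval 27 to 54.9), and without one 40 of 124 did (32.3%, interval 24.1 to 41.2), so these intervals overlapped. Tiles are 1000 bp long and the median window of an isolated gene was 1073 bp. Of the shares by locus, the tiles can therefore be set beside those of isolated genes only. These stood at 25.7% with an interval of 17.7 to 35.2% that held the 18.7% of the tiles. Without a coding TSS within 1000 bp they stood at 22.8% (interval 14.1 to 33.6), which held the 15.8% of such tiles. In replicate 1 both intervals lay above the tiles, at 32.4% (23.6 to 42.2) against 18.4% and 31.6% (21.6 to 43.1) against 14.3%. In replicate 3 both held the tiles, at 22.9% (15.2 to 32.1) against 19.1% and 17.7% (10 to 27.9) against 16.5%.

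The 76 pooled entries at tRNA loci were weaker than the list as a whole, with a median signal of 44.2 against 51.4, and 11 of them (14.5%) were IDR entries against 20.2% of the list. Where no coding TSS lay within 500 bp, 3 of 62 entries were in the IDR list (4.84%), against 14.8% of such entries in the whole list. Among the 14 entries with a coding TSS within 500 bp, 8 were (57.1%), against 37.4%. No intervals were computed for these shares. The 65 entries outside the IDR list had signals of 28.2 to 124 with a median of 41.4. All were below the weakest IDR entry at a tRNA locus (128), which had rank 5914 in both the IDR list and the pooled list. At these loci the IDR shares therefore repeat the order by pooled signal. They are not a separate measure of agreement between the replicates. Of the 65, 50 overlapped an entry of replicate 1, 40 one of replicate 3, 29 both and 4 neither. No share over the whole list is set beside the overlap counts given here and below. A replicate entry can also overlap a stronger pooled entry nearby, as at Glu-TTC-1-5, with pooled signals of 36.7 and 263.

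**Figure D3:**
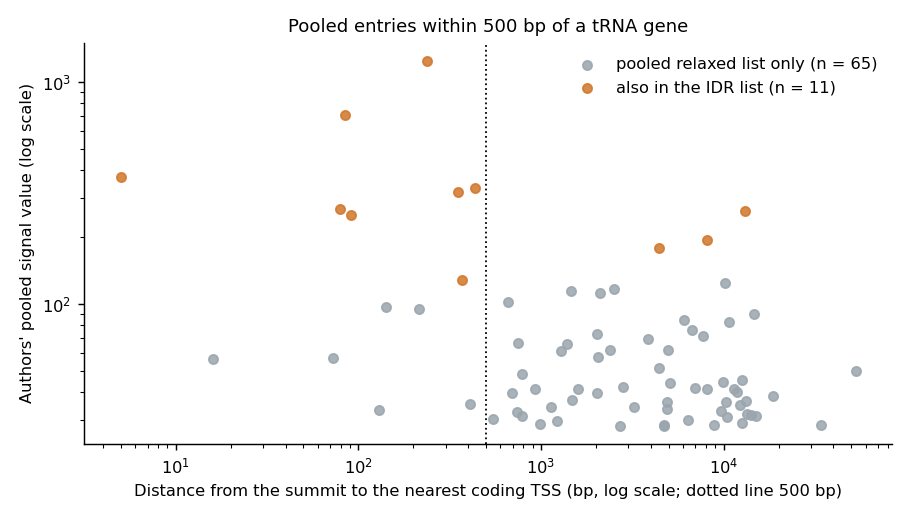
Authors' pooled signal value (log scale) of the 76 pooled entries at tRNA loci against the distance from the summit to the nearest coding TSS (log scale). The 11 entries in the IDR list (orange) include 8 left of the dotted line at 500 bp, and the 3 others lie at 4433 bp or more.

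The 5 loci with the highest signal outside the IDR list ranked from 6089 to 7479 in the pooled list, below the last entry of the IDR list. Pro-AGG-1-2, in a cluster of 3 proline genes, had a pooled signal of 124 at rank 6089, with rank 9729 in replicate 1 and 5231 in replicate 3. Thr-AGT-1-2, in a pair of threonine genes, had 116, with rank 2491 in replicate 1 and no entry in replicate 3. Val-CAC-1-1 had 114, with rank 9516 in replicate 1 and 6182 in replicate 3. Ser-TGA-2-1 had 111, with rank 4028 in replicate 1 and 23963 in replicate 3, and the isolated Ile-AAT-1-8 had 102, with rank 5627 in replicate 1 and no entry in replicate 3. Of these summits, that at Ile-AAT-1-8 alone lay within 1000 bp of a coding TSS, and the ranks were higher in replicate 1 at some loci and in replicate 3 at others.

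Summits of the pooled list were spread along the flanks of the tRNA genes: 34 lay upstream, 11 inside a gene and 31 downstream, with a median offset of 41.5 bp and quartiles of -208 and 307 bp. Per length searched, tRNA gene bodies held 491 pooled summits per Mb (exact Poisson interval 245 to 879), the 250 bp upstream 309 (186 to 483) and the 250 bp downstream 262 (150 to 426). At 2001 to 3000 bp the density was still 261 upstream and 246 downstream, against 218 over the whole arms. The intervals of the gene bodies and of each flank within 1000 bp overlapped one another. The 11 summits inside a gene were weak, with signals of 28.3 to 48.3, and none of those entries overlapped entries of both replicates: 7 overlapped one of replicate 1, 3 one of replicate 3 and 1 neither. The strongest of them was at the serine gene Ser-AGA-2-4 (48.3), followed by the lysine gene Lys-CTT-1-1 (44). In the IDR list the gene bodies, 22390 bp in all, held 0 summits, which allows up to 165 per Mb.

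**Figure D4:**
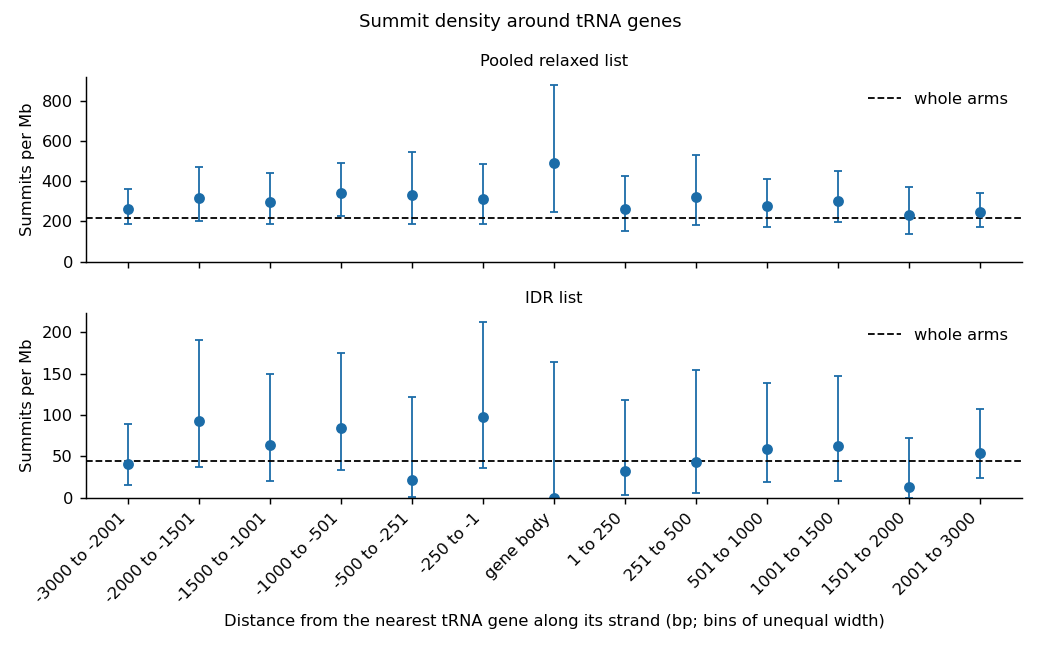
Summits per Mb by distance from the nearest tRNA gene along its strand (bins of unequal width; negative values are upstream), with exact 95% Poisson intervals, in the pooled relaxed list (top) and the IDR list (bottom). The dashed lines are the density over the whole arms, 218 and 44 per Mb; the pooled value is highest in the gene bodies (491 per Mb), with an interval that overlaps those of the neighbouring bins.

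A larger share of clusters than of isolated genes had a summit in every list, and the gap was smaller per gene and per length searched. In the IDR list, 6 of 71 clusters (8.45%, interval 3.16 to 17.5) and 5 of 105 isolated genes (4.76%, interval 1.56 to 10.8) had a summit, so the intervals overlapped. Without 2R the order turned, with 4.44% of clusters and 6.49% of isolated genes, and likewise when the entry had to overlap a tRNA gene, with 1.41% and 1.90%. In the pooled list, 34 of 71 clusters (47.9%, interval 35.9 to 60.1) and 27 of 105 isolated genes (25.7%, interval 17.7 to 35.2) had one, and the intervals did not overlap. The median window searched was 1594 bp for a cluster and 1073 bp for an isolated gene. Counted by gene, the pooled share was 32.1% in clusters (interval 25.5 to 39.2) and 25.7% among isolated genes. By gene the order turned in the IDR list, with 4.74% in clusters against 4.76%, and in replicate 3, with 21.1% against 22.9%. Per Mb of window, clusters held 355 pooled summits (258 to 477) and isolated genes 283 (194 to 399), and in the IDR list 48.4 and 44.2, against 44 over the whole arms. With the number of genes, the pooled share of loci was 44.4% for 2 genes, 56.3% for 3 and 50% for 4 or more, the last over 10 loci.

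**Figure D5:**
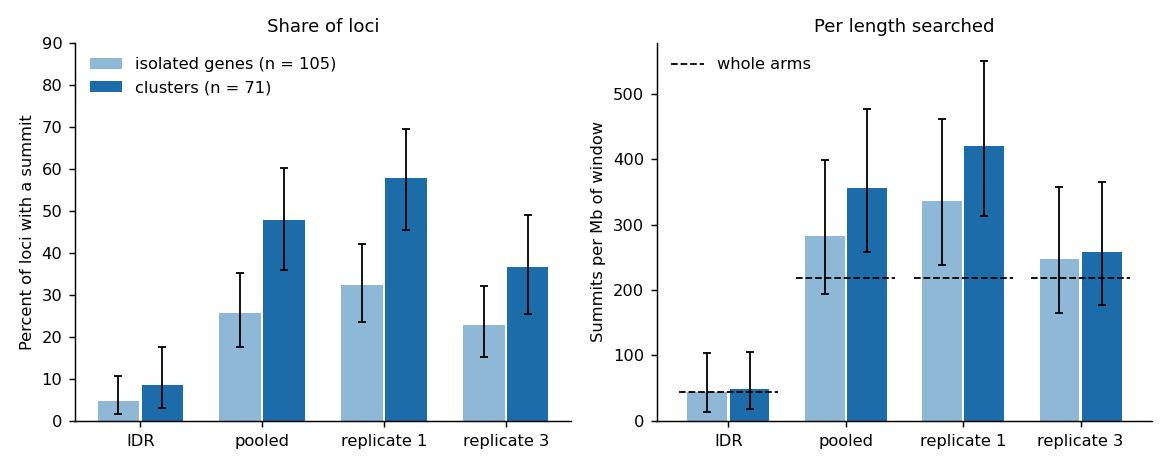
Left, percent of isolated tRNA genes (light) and clusters (dark) with a summit in each list, with exact 95% binomial intervals. Right, summits per Mb of window searched, with exact 95% Poisson intervals and the density over the whole arms (dashed). The pooled shares of 25.7% and 47.9% are further apart than the densities of 283 and 355 per Mb.

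The largest clusters ranged from no summit to an IDR summit. The cluster of 7 isoleucine and leucine genes that starts with Ile-AAT-1-3 had a pooled signal of 97.2, with 67.7 in replicate 1 and 29.6 in replicate 3. The other cluster of 7, arginine and serine genes on X that starts with Arg-TCG-2-1, had no pooled summit and 1 weak entry in replicate 1 (17.6, rank 24394). Among the 2 clusters of 6, that of Cys-GCA-1-1 had 83 in the pooled list, 71.2 in replicate 1 and none in replicate 3. That of Asn-GTT-1-10 had 45.5 in the pooled list, none in replicate 1 and 32 in replicate 3. The 5 genes from Arg-ACG-1-2 had no summit in any list, whereas the 5 from Glu-TTC-1-5, on the same arm, had an IDR summit. Of these 6 clusters, 4 had a pooled summit, beside 34 of all 71 clusters (47.9%).

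More tRNA loci had a summit in replicate 1 than in replicate 3, although both lists hold 30000 entries. The relaxed list of replicate 1 had a summit at 75 of 176 loci (42.6%, interval 35.2 to 50.3) and that of replicate 3 at 50 (28.4%, interval 21.9 to 35.7). In the 5′-end window, tRNA genes stood at 33.6% in replicate 1 and 21% in replicate 3, against 43% and 35.7% of the other genes. The 1 kb tiles stood at 18.4% and 19.1%. The tRNA interval lay above the tiles in replicate 1 (28.2 to 39.3) and held them in replicate 3 (16.5 to 26.1). A summit in both lists was present at 32 loci, in replicate 1 alone at 43, in replicate 3 alone at 18 and in neither at 83. At 78 loci none of the 3 relaxed lists had a summit. Per Mb of tRNA window, replicate 1 had 380 summits (305 to 467) and replicate 3 had 253 (193 to 326), against 218 over the whole arms in each.

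Among the 6054 strongest entries of each replicate, 16 loci had a summit in replicate 1 (9.09%) and 11 in replicate 3 (6.25%). In the 5′-end window these were 7.12% and 4.07% of tRNA genes, against 21% and 15.9% of the other genes. In replicate 1 these were 12 clusters (16.9%, interval 9.05 to 27.7) and 4 isolated genes (3.81%, interval 1.05 to 9.47), whose intervals overlapped only between 9.05 and 9.47%. Replicate 3 gave 6 clusters (8.45%) and 5 isolated genes (4.76%), with widely overlapping intervals. Both strongest lists had a summit at 8 loci, and all 8 were IDR loci. A further 9 loci were in 1 strongest list without being in the IDR list, 7 of them in replicate 1 and 2 in replicate 3.

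The loci were spread over 5 arms, with 100 of the genes on 2R, 79 on 3R, 49 on 3L, 41 on 2L and 26 on X. The pooled share of loci ran from 26.7% on X (4 of 15) to 40% on 2L (12 of 30), with wide intervals that overlapped. For position relative to coding genes, 27 of 84 loci inside a coding gene (32.1%) and 34 of 92 outside (37%) had a pooled summit, with overlapping intervals. By copy number, the pooled share was 35.1% for the 57 genes of unique sequence, 31.1% for the 103 genes with 1 to 4 identical copies and 26.7% for the 135 genes with 5 or more, with overlapping intervals. The sources used here do not give how the authors treated reads that map to several places, and its part in these shares was not tested.

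Isotypes differed widely in the relaxed list, on few genes each, where 29.8% of all tRNA genes had a summit. Of the 6 initiator genes (iMet), whose tRNA starts translation, 5 had a pooled summit (83.3%), whereas none of the 6 elongator methionine genes (Met), whose tRNA inserts methionine within the chain, had one. These were named after their values were seen. The 5 initiator genes lay in only 3 of 4 loci, and their pooled signals were low, 66 at iMet-CAT-1-5, 40.1 at iMet-CAT-1-2 and 33.8 at iMet-CAT-1-3. Alanine genes stood at 10 of 17 (58.8%), cysteine genes at 4 of 7 (57.1%) and asparagine and tyrosine genes at 1 of 10 (10%) each. They too were picked by their values, from the ends of the 22 isotypes, and no intervals were computed. Genes of a cluster can share a summit, as in the cluster of Cys-GCA-1-1, which had 1 pooled summit. No isotype had more than 2 genes within 500 bp of an IDR summit.

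Of 106 other listed genes read by RNA polymerase III, 96 are 5S rRNA genes and 10 others. Among the 10, 2 had a pooled summit (20%, interval 2.52 to 55.6) and 1 an IDR summit (10%, interval 0.253 to 44.5), and both intervals held the share of the tRNA genes. The IDR summit was at snRNA:7SKa, whose RNA restrains the elongation factor P-TEFb, with a signal of 184 at rank 3853, 128 in replicate 1 and 66 in replicate 3. The gene of the RNA of RNase MRP, an enzyme of rRNA processing, had a pooled signal of 99.3. The 96 genes of 5S rRNA, an RNA of the large ribosomal subunit, had no summit in any list. They stand in a tandem array of near-identical copies, 1 locus under the joining rule, where a read may match several genes. Whether this bears on the missing summits was not tested. The U6 genes snRNA:U6:96Ab and snRNA:U6:96Ac, for an RNA of the spliceosome, shared 1 entry of replicate 1 with a signal of 137 and had none in the other lists.

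Genes that encode the polymerase III machinery and tRNA processing enzymes are themselves read by RNA polymerase II, and their promoters were nearer the coding average. Of the 29 listed, 8 had an IDR summit within 500 bp of an annotated TSS (27.6%, interval 12.7 to 47.2), against 23% of all coding genes counted the same way, and 15 had a pooled one (51.7%), against 44%. Both TFIIIB subunits on the list that are specific to polymerase III were among them, Bdp1 with 1335 at rank 112 and Brf with 860 at rank 321. Replicate 1 gave 564 and 403 for them, and replicate 3 gave 774 and 462. The polymerase subunit gene Polr3E (785) followed, together with Rpp20 (355), for a subunit of RNase P, and RNaseZ (348), for the enzyme that cuts the 3′ end of the precursor. Archease (193), which assists the tRNA ligase RtcB, and La (190), whose protein binds the 3′ end of new transcripts, were the weakest. Rpp20 had a signal of 193 in replicate 1 and no summit within the window in replicate 3. The genes of the 2 largest subunits, Polr3A and Polr3B, and Trf, the TBP relative used at fly tRNA genes, had no summit in any list.

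The 500 bp limit mattered for the IDR count. The locus just inside it, Val-CAC-2-5, had its summit 390 bp from the gene body, and those just outside were Pro-CGG-2-2 at 567 bp, Leu-CAA-2-2 at 590 bp and Ile-AAT-1-9 at 615 bp. In all, 13 loci had their nearest IDR summit at 501 to 1000 bp. The median tRNA gene lay 7893 bp from the nearest IDR summit, 1124 bp from the nearest pooled summit and 2863 bp from the nearest coding TSS.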

How the data were processed

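The data were 2 ChIP-seq libraries, assigned to 1 group because both labels describe the same tagged line. The authors deposited narrowPeak lists on dm6 and dm3, per the file descriptions: relaxed lists for each replicate and for both pooled, and an IDR-thresholded set. The authors' signal value is a score of unnamed scale, used here for describing entries and ranking them inside each list, and replicates were compared by rank, and the summit is a base offset in the deposited file. Aligner, peak caller and settings: not given in the sources used here. dm3 lists were not used, and depth is unknown.

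Genes were taken from the Ensembl annotation and sequences from RefSeq, both of Release 6, and coordinates are counted from 1. Shares of loci, genes and tiles with a summit, exact intervals (95%), distances and words were computed with Python 3.11.15, numpy 2.4.6, pandas 2.3.3, scipy 1.17.1 and drawn with matplotlib 3.10.9. No test across loci was made, since the design has 1 group. The counting was checked on simulated summits placed inside the windows of known loci, which checks the count and not the background. The members and lists were chosen with earlier results of these data known. Named loci are every locus with an IDR summit, the 5 strongest pooled loci without one, the largest clusters, and listed polymerase III genes with an IDR summit; other names were chosen after their values were seen, and 1 listed gene is not reported here. Alternatives changed the window, the joining of genes, the list length and the coding TSS filter, and left out each replicate and 2R.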

Additional observations from a re-analysis of the deposited data

How the results depend on the processing

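No paired analysis was possible because all samples form 1 group. Values are the percent of loci with a summit, and those named up to the leaving out of a replicate left the main value's 95% interval. With a window of 250 bp, the pooled share was 23.3% of loci and 13.3% of isolated genes. With 1000 bp, the IDR share was 13.6% of loci and 11.4% of isolated genes, and the pooled share 49.4%, 41.9% and, for clusters, 60.6%. Where the entry had to overlap a tRNA gene, the IDR share was 1.70% of loci and 1.41% of clusters, and the pooled share 16.5%, 6.67% of isolated genes and 31% of clusters. The 15000 strongest entries of the pooled list gave 18.2%, 9.52% and 31%. At loci with no coding TSS within 1000 bp, the IDR share was 2.42% of loci and 1.27% of isolated genes. Using only summits with no coding TSS within 500 bp, it was 1.70%, 0.952% and 2.82% of clusters. The gene body in place of the 5′ end gave 26.5% for the other genes with an IDR summit. An IDR list cannot be made from 1 replicate, so leaving one out meant taking the other's strongest entries, as many as the list holds. In place of the IDR list this gave 6.25 to 9.09% of loci, 3.81 to 4.76% of isolated genes and 8.45 to 16.9% of clusters, and in place of the pooled list 28.4 to 42.6%, 22.9 to 32.4% and 36.6 to 57.7%. Of these, the 42.6% of replicate 1 alone left its interval. Joining at 500 or 5000 bp and leaving out 2R kept all shares within their intervals, as did leaving out Psi genes, chosen after seeing the data, for the IDR share of loci. Clusters were above isolated genes under every alternative except 2, the entry overlap and leaving out 2R, in the IDR list. The median offset was 41.5 bp in the pooled list against -159 bp in the IDR list. The unknown depth limits how far a missing entry can be read as missing binding.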
